A study of Mus musculus with 6 samples.

Results

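DNA replication and S phase genes were followed as 1 gene set in 6 tumours of mouse hosts, 3 lactating and 3 control. The set is a list of 35 gene names. No measured value entered the rule that made it, though members were chosen with earlier results of these data known. Each was matched to its single-gene probe sets on the array, and all 35 were found among 18194 genes that had one. Where a gene had several, the one with the highest mean over the arrays stood for it. KPC1199, the injected line, comes from mouse pancreatic ductal adenocarcinoma, and it was placed under the skin of the right back. Lactation-group mice received the cells in pregnancy or when nursing began, and tumours of both groups were collected 20 days after injection from mice of the same age. Strain, genotype and the age itself are not given in the sources used here, and the labels do not separate mice injected in pregnancy from mice injected while nursing. All tumours of both groups carry the same injected line, so the comparison is between hosts.

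Before a cell copies its genome, origins are licensed in G1: Cdc6 and Cdt1 help load the Mcm2 to Mcm7 ring onto DNA, and geminin (Gmnn) later holds Cdt1 in check. Cdc45 and the GINS complex then turn the ring into an active helicase, polymerase alpha with its primase starts each strand, polymerases delta and epsilon extend it on the sliding clamp Pcna, and Fen1 and Lig1 process and seal the lagging strand. Many of these genes are switched on together at the G1 to S boundary by E2F factors, which the retinoblastoma protein restrains in resting cells, and their transcripts are widely read as a measure of how much of a tumour is cycling.

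Transcript levels of this machinery did not differ detectably between the hosts. Of the 35 members, 34 passed the filter on low values (at least 3 of the 6 arrays at or above the array's median signal), and Tyms did not. Of the 34, 0 had an adjusted p under 0.05 in limma with Benjamini-Hochberg adjustment over all genes, and 0.0% of the 11623 genes tested did. At an unadjusted p under 0.05 there were also 0 members, where 2.27% of all tested genes had such a p, 1.51% as higher and 0.766% as lower in lactation. The lowest unadjusted p among the members in limma was 0.0732, for E2f1. The labels call the tumours biological replicates without saying more of the mice, and p-values measure the spread between these samples.

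Directions were mixed. A higher mean in lactation was found for 13 of the 34 members and a lower mean for 21, where 48.3% of all tested genes had a higher mean. The median log2 difference, lactation minus control on the log2(signal + 16) scale, was -0.018 over the members and -0.0052 over all tested genes. Arrays of the 2 groups did not overlap for 3 members, 1 higher (Gins2) and 2 lower (Pcna and E2f1), beside 6.9% of all genes, 3.71% higher and 3.19% lower. That number is close to the background, and is no result about the set.

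The differences were also small. An absolute difference under 0.1 on the log2 scale was measured for 26 of the 34 members, and the largest, that of E2f1, was -0.27. The median absolute difference was 0.048 in the set and 0.090 over all tested genes. The median range over the 6 arrays was 0.335 for a member and 0.436 for a tested gene. A 95% interval from limma, taken for each gene alone, lay wholly within 1.5-fold either way for 33 of the 34 members (97.1%) and for 70.9% of all tested genes. The exception was Fen1. A limit of 1.25-fold held the whole interval of 16 members (47.1%) and of 27.2% of all tested genes. Members sat at a median of the 58.8th percentile of level among tested genes, with a median standard error of 0.107 in place of 0.137. How much of the narrower interval comes with the level was not tested. In bulk tumour RNA, fewer cells of a type and less RNA per cell cannot be told apart, nor can a cycling tumour cell and a cycling stromal cell.

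**Figure D1:**
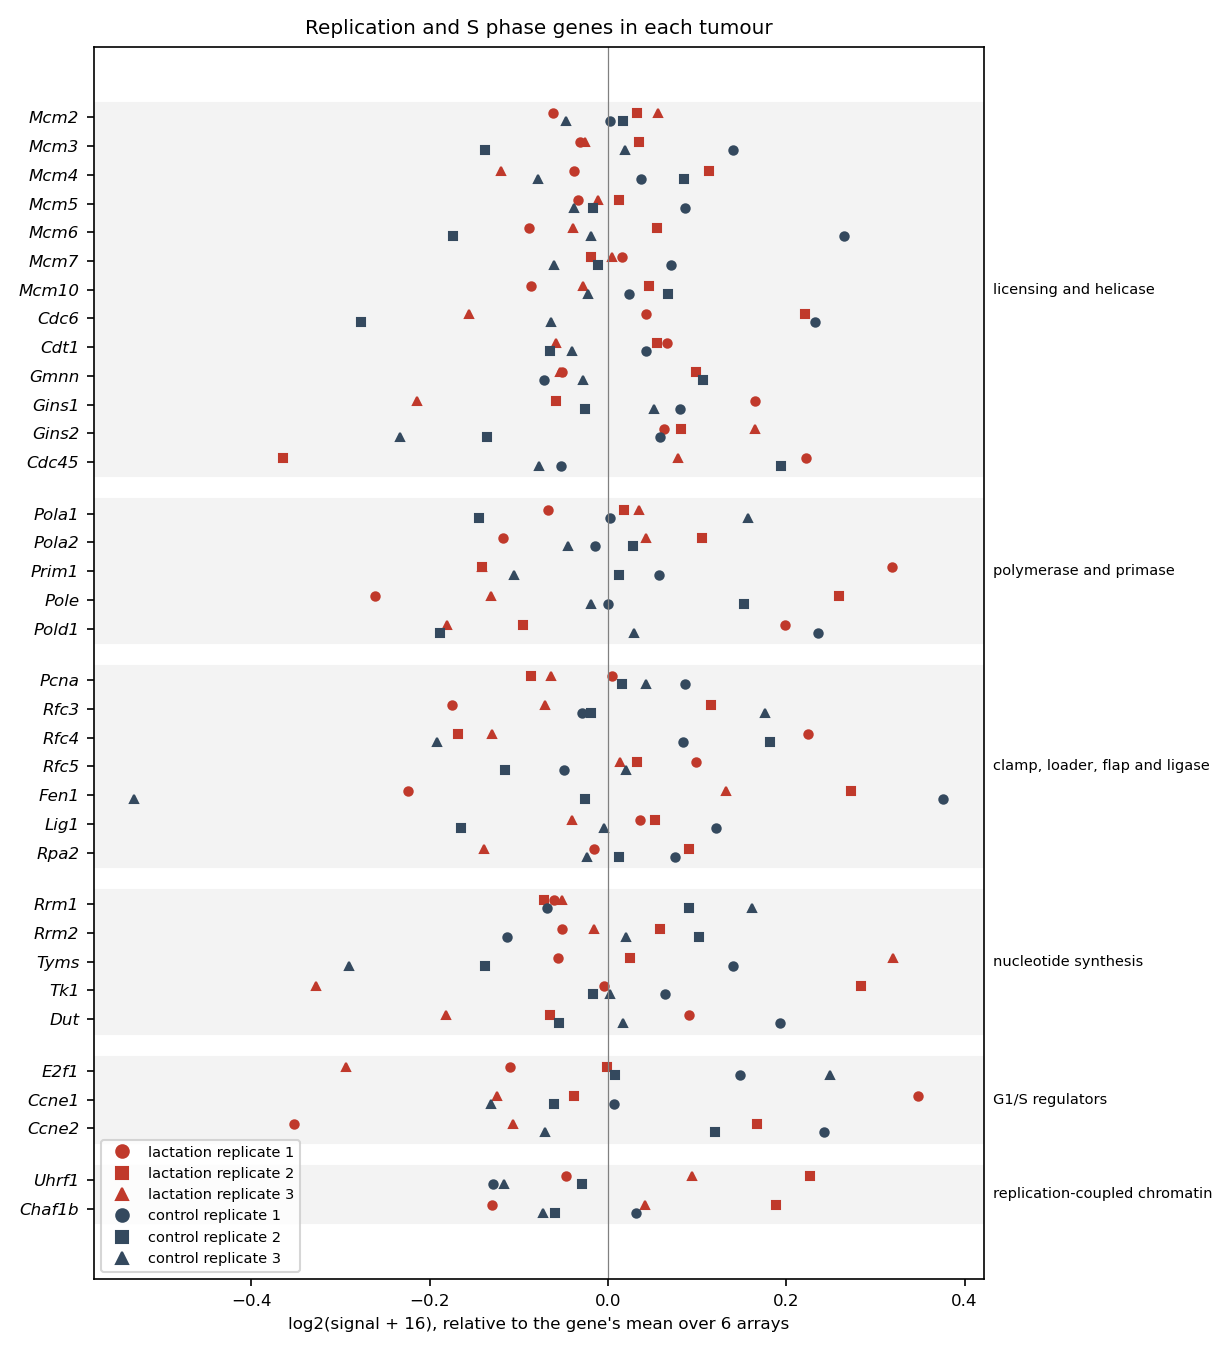
Signals of the 35 members in each of the 6 tumours, as log2(signal + 16) relative to the gene's own mean over the arrays, with genes grouped by role, lactation in red and control in dark blue. Red and blue points overlap for all members but Gins2, Pcna and E2f1, and the widest spread among tested members, that of Fen1, was 0.907.

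**Figure D2:**
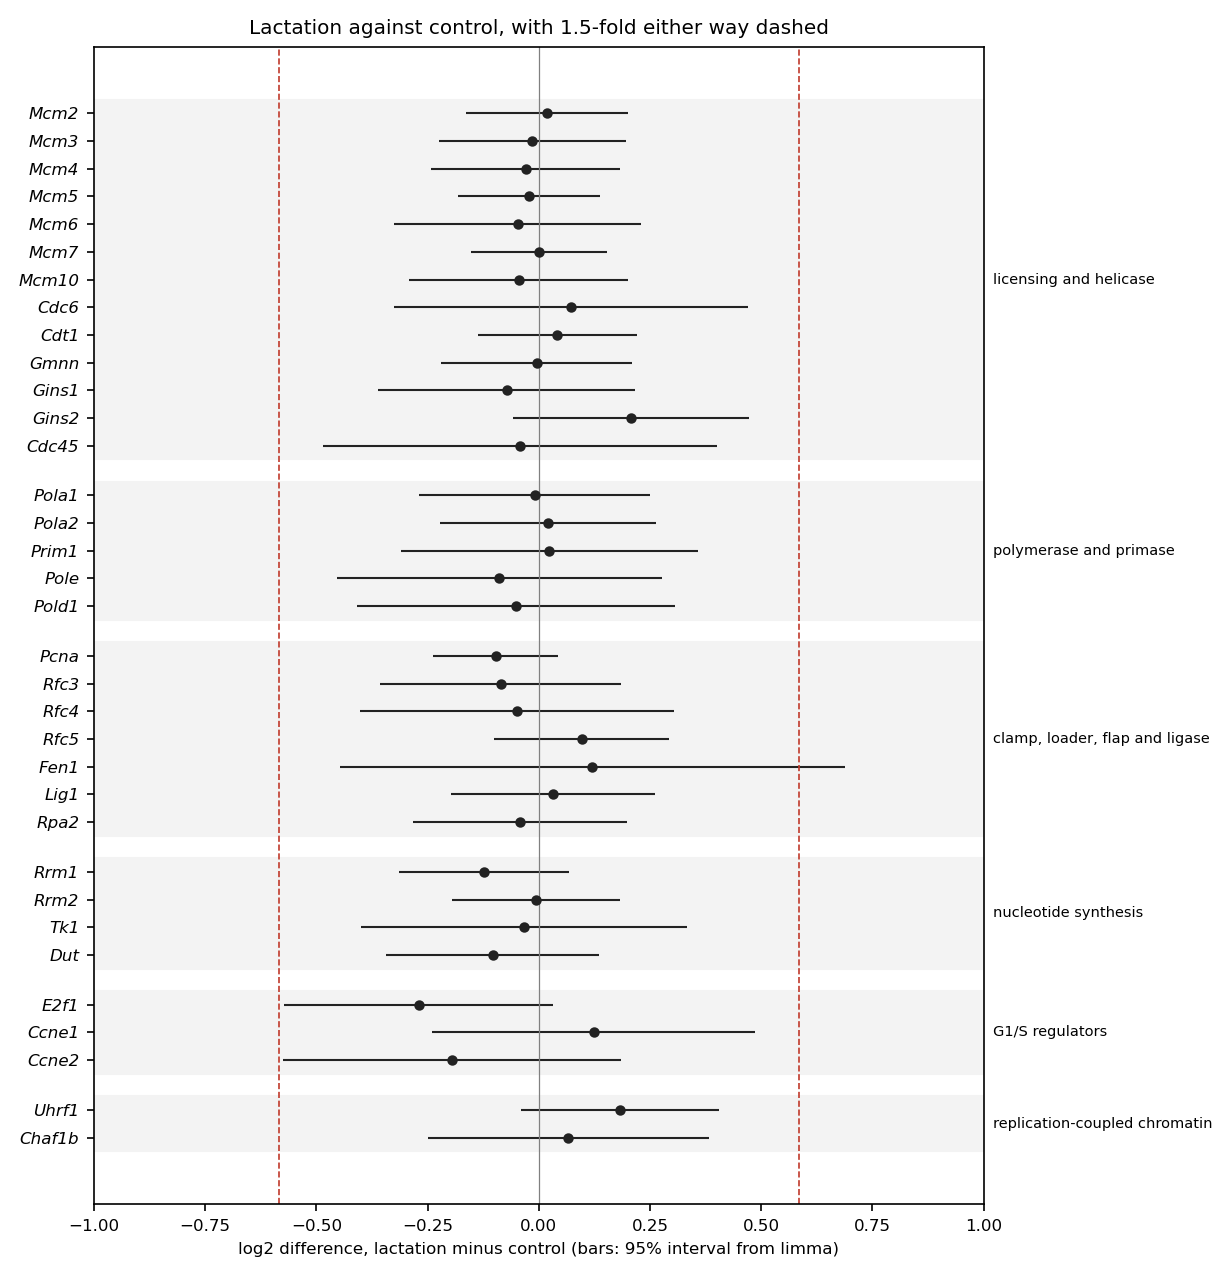
Log2 difference between lactation and control for the 34 tested members, with 95% intervals from limma as bars and 1.5-fold either way as dashed lines. All 34 intervals cross 0, and that of Fen1 alone passes a dashed line.

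E2F factors are the known regulators of many members, and E2f1 is itself a member, so the members' promoters were searched for the E2F site. RefSeq promoter windows (GRCm38.p6, from 250 bases before to 50 after a start site) were found for 29 of the 35 members, in 34 windows. The E2F site was searched on both strands as TTTCCCGC, TTTCGCGC, TTTGCCGC or TTTGGCGC. It was present in 11 of the 34 windows (32.4%) and in 744 of all 32851 windows (2.26%). A CHR element, the site of G2 and mitosis genes, searched as TTTGAA or as TTCGAA, was in 5 of the 34 windows (14.7%) and in 19.2% of all. CCAAT, the box bound by NF-Y, was in 17 of them (50%) and in 37.4% of all. Of 17 E2F matches in the members' windows, 1 overlapped a CHR or CCAAT match. A match is a description of the letters and not a site shown to be bound. The 11 members with an E2F match were Cdc6, Cdt1, Lig1, Mcm3, Mcm5, Mcm6, Mcm7, Pola1, Pold1, Rfc3 and Uhrf1. Their median log2 difference between hosts was -0.0094, and it was -0.033 for the 17 other tested members that had a window. In 7 of the 11 a match lies before the start site. These stretches are printed 5′ to 3′ along the gene's strand, with E2F letters in capitals and up to 40 bases to either side, at Mcm5 chr8:75109316-75109407 (+), Mcm6 chr1:128359706-128359855 (-), Mcm7 chr5:138172001-138172088 (-), Cdc6 chr11:98907973-98908060 (+), Pola1 chrX:93632246-93632333 (-), Rfc3 chr5:151651209-151651258 (-) and Uhrf1 chr17:56304088-56304175 (+):
Mcm5: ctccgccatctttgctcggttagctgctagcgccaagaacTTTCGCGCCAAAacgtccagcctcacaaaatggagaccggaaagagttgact
Mcm6: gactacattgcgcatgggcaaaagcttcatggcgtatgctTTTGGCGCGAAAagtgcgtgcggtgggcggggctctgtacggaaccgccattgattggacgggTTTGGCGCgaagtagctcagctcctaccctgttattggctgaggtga
Mcm7: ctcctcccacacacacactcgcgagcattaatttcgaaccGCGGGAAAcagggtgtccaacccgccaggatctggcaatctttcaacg
Cdc6: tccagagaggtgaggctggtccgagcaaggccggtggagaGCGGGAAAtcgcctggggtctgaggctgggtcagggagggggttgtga
Pola1: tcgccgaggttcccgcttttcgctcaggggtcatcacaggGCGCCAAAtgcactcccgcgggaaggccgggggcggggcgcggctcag
Rfc3: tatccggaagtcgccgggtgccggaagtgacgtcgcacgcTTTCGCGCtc
Uhrf1: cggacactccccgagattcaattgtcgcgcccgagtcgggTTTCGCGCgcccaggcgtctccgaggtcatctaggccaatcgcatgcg
In the Mcm5 and Mcm6 promoters a pair of matches on opposite strands overlaps, so that the capitals form 1 longer run.

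The helicase ring came first in the order of events and had small differences at the probe set of highest mean. The probe sets that stood for the 6 ring genes had log2 differences from -0.048 (Mcm6) to 0.018 (Mcm2). All 6 intervals lay within 1.5-fold. Other probe sets of these genes above the filter had differences from -0.056 (Mcm3) to 0.26 (Mcm4). Mcm7, one of the subunits of the catalytic core, had signals of 5773, 5632 and 5726 in lactating hosts and 5998, 5663 and 5475 in control hosts. The highest and the lowest were both control tumours, and the difference of 0.00055 had an interval of -0.15 to 0.15. Mcm5, whose promoter is shown above, measured 4039, 4169 and 4102 in lactating hosts and 4391, 4087 and 4027 in control hosts, with an interval of -0.18 to 0.14. Here too control tumours held both ends of the range. For Mcm2, the regulatory subunit that also carries histones, signals were 1647, 1758 and 1788 in lactating hosts and 1722, 1739 and 1663 in control hosts, and its difference was 0.018. Lactation tumours held both the highest and the lowest of these values.

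Mcm6, with 3 E2F matches before its start, spread most widely of the ring genes, at 4592, 5074 and 4751 in lactating hosts and 5869, 4326 and 4816 in control hosts. Control replicate 1 was the highest and control replicate 2 the lowest, so that the spread lay within 1 group. Mcm3 measured 3051, 3193 and 3062 in lactating hosts and 3438, 2831 and 3160 in control hosts, and again these control tumours held the extremes. Mcm4 had 2815, 3127 and 2659 in lactating hosts and 2966, 3066 and 2737 in control hosts, with the extremes in lactation replicates 2 and 3. Mcm10, a separate protein that helps start the loaded helicase, had a mean of 412 ± 19.6 against 426 ± 13.6 (SD, n = 3 in each group) and a difference of -0.045.

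The loading factors and their inhibitor also had overlapping groups. Cdt1, the licensing factor destroyed once S phase starts, had signals of 2866, 2844 and 2628 in lactating hosts and 2821, 2616 and 2662 in control hosts and a difference of 0.041 with an interval of -0.14 to 0.22. The groups overlapped, within a narrow range of 0.131 on the log2 scale over all 6 arrays. Cdc6, the ATPase that loads the ring, varied more, at 459, 521 and 398 in lactating hosts and 525, 364 and 425 in control hosts. Its highest and lowest values were both in controls. The difference of 0.072, larger than those of the probe sets that stood for the ring genes, had an interval of -0.32 to 0.47. Gmnn, the inhibitor of Cdt1, measured 1458, 1619 and 1455 in lactating hosts and 1437, 1629 and 1483 in control hosts, a difference of -0.0048. Its lactation values all lay inside the control range.

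The activators of the helicase held the one member whose lactation values all exceeded the controls. Gins2, a GINS subunit, had signals of 598, 606 and 643 in lactating hosts and 596, 519 and 484 in control hosts. The lowest lactation tumour exceeded the highest control by a small margin, and the log2 difference was 0.21 (standard error 0.11, limma adjusted p = 1). Its second probe set above the filter gave the opposite order, with 433, 388 and 373 in lactating hosts and 461, 421 and 540.4 in control hosts and a difference of -0.24. Averaging its probe sets gave Gins2 a difference of -0.016, so no direction can be given for this gene. Gins1, a partner subunit, measured 712, 608 and 544 in lactating hosts and 671, 622 and 657 in control hosts, with both extremes in lactation and a difference of -0.072. Cdc45, which joins the ring and GINS in the active helicase, had 317, 206 and 286 in lactating hosts and 259.5, 311 and 255 in control hosts, and its difference of -0.043 had an interval of -0.49 to 0.40. Lactation replicates 1 and 2 were its highest and lowest arrays.

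Polymerase and primase genes showed the same overlap. All 5 members were tested and all 5 intervals lay within 1.5-fold, with 2 means higher and 3 lower. Pole, the catalytic subunit of the leading-strand polymerase, had the largest difference of the role, -0.089 (standard error 0.15, limma adjusted p = 1). Its signals were 430.1, 624 and 472 in lactating hosts and 519, 578 and 512 in control hosts. Lactation replicate 2 was the highest array and lactation replicate 1 the lowest, and the 3 controls lay between them. Pold1, the catalytic subunit of polymerase delta, measured 837, 680.0 and 639.9 in lactating hosts and 859, 636 and 743 in control hosts, a difference of -0.051. Prim1, the catalytic primase subunit, measured 1858, 1346 and 1347 in lactating hosts and 1547, 1499 and 1381 in control hosts, where lactation replicate 1 stood above the other 5 arrays. Its second probe set had its highest value in the same tumour, at 788.

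Pola1, the catalytic subunit of polymerase alpha, had means of 692 ± 26.6 against 699 ± 75.0 (SD, n = 3 each) and a difference of -0.0094. A dim second probe set of Pola1, below the filter, had 17.0, 19.8 and 27.0 in lactating hosts and 11.8, 12.5 and 12.3 in control hosts, and averaging both probe sets gave Pola1 a difference of 0.19. Pola2, the regulatory subunit, had means of 602 ± 48.5 against 592 ± 15.5 and a difference of 0.021, with its groups overlapping.

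At the clamp, the control tumours all stood above the lactation tumours by a small step. Pcna, the ring that tethers polymerases and recruits repair and ligation enzymes, had signals of 8211, 7708 and 7827 in lactating hosts and 8691, 8276 and 8431 in control hosts. The log2 difference was -0.097 (standard error 0.060, limma adjusted p = 1), a ratio of 1.07 between the group levels. It was the only single-gene probe set of Pcna, and its interval of -0.24 to 0.044 holds 0. When an array was left out the difference ranged from -0.12 to -0.078.

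At the probe sets that stood for them, the means of the clamp loader subunits went both ways, with Rfc3 and Rfc4 lower in lactation and Rfc5 higher. Rfc5 measured 1288, 1229 and 1212 in lactating hosts and 1160, 1108 and 1219 in control hosts, a higher mean by 0.096 with 1 control above the lowest lactation tumour. Rfc3 had means of 826 ± 87.0 against 876 ± 73.0 and Rfc4 of 890.1 ± 141 against 919.6 ± 122 (SD, n = 3 each), with differences of -0.086 and -0.049 and overlapping groups. The second probe sets of Rfc3 and Rfc4, also above the filter, had the other sign, with differences of 0.020 and 0.033. Rpa2, a subunit of the protein that coats single-stranded DNA, had means of 648 ± 52.7 against 666 ± 23.5 and a difference of -0.042.

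Fen1, the flap nuclease, was the least precise member. Its signals were 801, 1137 and 1030 in lactating hosts and 1223, 922 and 644 in control hosts, and the difference of 0.12 had a standard error of 0.24 and an interval of -0.45 to 0.69 (limma adjusted p = 1). Control replicates 1 and 3 were the highest and lowest of all 6 tumours. Without control replicate 3 the difference was -0.12. The second probe set was steadier, at 856, 892 and 858 in lactating hosts and 804, 965 and 802 in control hosts, a difference of 0.024. Lig1, the ligase that seals Okazaki fragments, measured 1580, 1599 and 1498 in lactating hosts and 1677, 1374 and 1537 in control hosts, with both extremes in controls and a difference of 0.032.

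Among nucleotide synthesis genes, all 4 tested members had a lower mean in lactation at the probe set that stood for the gene, and none passed the test. Rrm1, the large subunit of ribonucleotide reductase, had the largest difference of the role at -0.12 (standard error 0.081, limma adjusted p = 1). Its signals were 3084, 3062 and 3105 in lactating hosts and 3070, 3428 and 3601 in control hosts. The 3 lactation tumours were nearly equal and control replicate 1 lay among them, while the other 2 controls were higher. A second probe set above the filter had 2028, 1814 and 1843 in lactating hosts and 1953, 2246 and 2124 in control hosts, a difference of -0.15, and there too control replicate 1 fell inside the lactation range.

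Rrm2, the small and S phase-limited subunit, measured 4353, 4700 and 4466 in lactating hosts and 4170, 4848 and 4577 in control hosts, a difference of -0.0060 in which the lowest and highest arrays were both controls. Its other 2 probe sets gave -0.11 and -0.11. Dut, which removes dUTP before it can enter DNA, had 3945, 3540 and 3263 in lactating hosts and 4237, 3566 and 3747 in control hosts and a difference of -0.10, with an overlap between the groups. The second probe set of Dut, dimmer but above the filter, had a higher mean in lactation, by 0.066. Tk1, the salvage kinase of thymidine, had 995, 1218 and 792 in lactating hosts and 1044, 986 and 999.6 in control hosts. Its 3 controls were close together and lay between lactation replicates 2 and 3. Tyms, thymidylate synthase, was dim in all 4 of its probe sets and was not tested. That of highest mean had 80.5, 86.0 and 109 in lactating hosts and 94.6, 75.2 and 66.0 in control hosts, where array medians were from 99.3 to 111.0. The measured difference of Tyms was 0.19, with overlapping groups.

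G1/S regulators held the largest difference of the set. E2f1, the activator of this programme, had signals of 389, 421 and 341 in lactating hosts and 469, 424 and 504 in control hosts. Every lactation tumour lay below every control, with lactation replicate 2 and control replicate 2 almost touching. The log2 difference was -0.27 with a standard error of 0.13, an interval of -0.57 to 0.033 and a limma adjusted p of 1, so it did not pass the test. A second probe set of E2f1 above the filter also separated the groups, with 247, 299 and 269 in lactating hosts and 322, 313 and 318 in control hosts and a difference of -0.22. Its remaining probe set, below the filter, had a difference of 0.31. Without each array in turn the E2f1 difference stayed between -0.34 and -0.19. With all 3 probe sets averaged, the dim one included, it was -0.059.

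The cyclins of Cdk2 gave means of opposite sign. Ccne1 measured 456, 345 and 324 in lactating hosts and 357, 339.8 and 323 in control hosts, a difference of 0.12, with lactation replicate 1 above the other 5 arrays; without it the difference was -0.020. Ccne2 measured 390.3, 567 and 466 in lactating hosts and 597, 548 and 478 in control hosts, a difference of -0.19 with an interval of -0.57 to 0.19. Lactation replicate 1 was its lowest array, and without it the difference was -0.067. Neither cyclin separated the groups.

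The chromatin members, which act on newly made DNA, both had higher means in lactation. Uhrf1, the reader of hemimethylated DNA that guides the maintenance methyltransferase, had signals of 1851, 2241 and 2043 in lactating hosts and 1748, 1874 and 1763 in control hosts. Control replicate 2 lay just above lactation replicate 1, and the difference was 0.18 (standard error 0.094, limma adjusted p = 1). The second probe set of Uhrf1 went the other way, with 482, 427 and 368 in lactating hosts and 449.5, 479 and 483 in control hosts and a difference of -0.15. Chaf1b, a subunit of the histone chaperone that works with Pcna, had 270.1, 341 and 306 in lactating hosts and 304, 285 and 282 in control hosts and a difference of 0.067. Its lactation tumours held both the highest and the lowest value.

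How far 1 probe set speaks for a gene could be read from the 20 members that had more than 1 above the filter. The lowest and highest difference of a gene lay under 0.2 apart on the log2 scale in 16 of the 20, and the signs were mixed in 11. The wider gaps were those of Gins2, Uhrf1, Mcm4 and Mcm6. The second probe sets of Mcm4 and Mcm6 had differences of 0.26 and 0.22, with their lowest values, 2102 and 2089, in control replicate 3. A second probe set of Mcm2 had 1454, 1430 and 1365 in lactating hosts and 1326, 1299 and 1276 in control hosts, where the groups did not overlap and the difference was 0.12. Among 26 such second probe sets, groups did not overlap for 1 as higher (Mcm2) and for 1 as lower (E2f1). Of all 8644 second probe sets above the filter on the array, 7.33% did not overlap, 3.71% as higher and 3.62% as lower, so the members' count is close to the background. Averaging all probe sets of a gene, dim ones included, changed the sign of 5 of the 32 members tested that way and moved the size of 17 others by over 1.5 times. Chaf1b went from 0.067 to 0.36, Uhrf1 from 0.18 to 0.017 and Dut from -0.10 to -0.019, and 0 passed in limma after adjustment. For Chaf1b the other probe set was dim and below the filter.

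**Figure D3:**
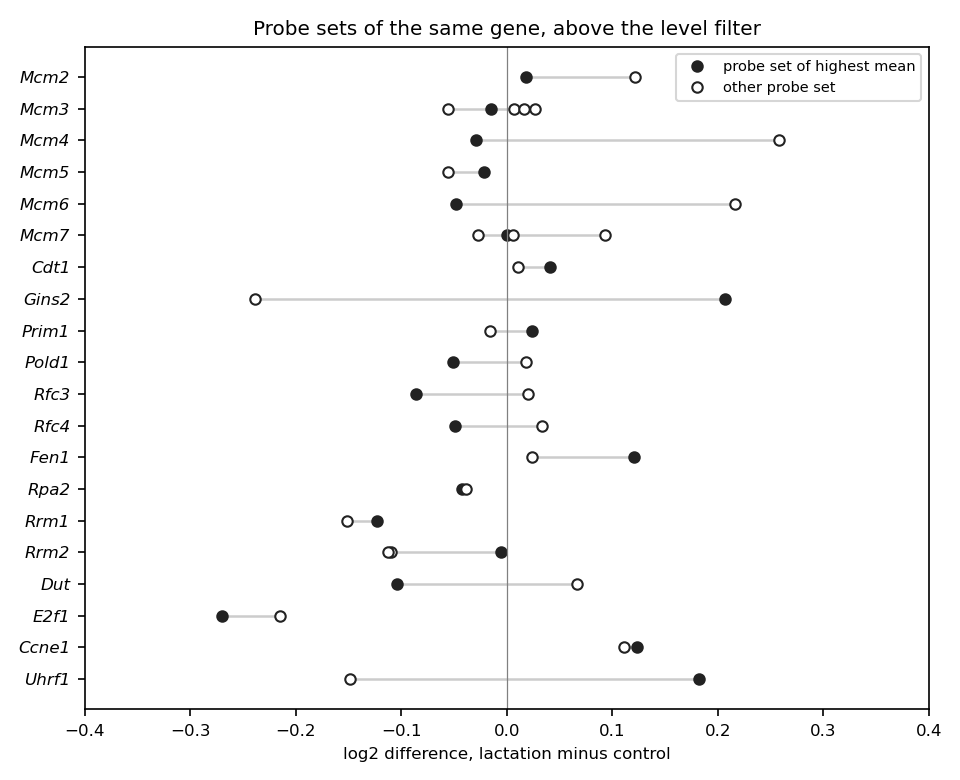
Log2 difference between lactation and control for each probe set above the level filter, for the 20 members with more than 1. Filled points are the probe set of highest mean and open points the others; those of Gins2 lie furthest apart, at 0.21 and -0.24, and those of E2f1 both lie below 0.

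Averaged over the 34 tested members, the log2 level of the set was 10.25, 10.30 and 10.20 in lactating hosts and 10.32, 10.24 and 10.23 in control hosts. The group means were 10.25 ± 0.052 and 10.26 ± 0.052 (SD, n = 3 each), and the difference was -0.013. Control replicate 1 had the highest average, with 26 of the 34 members above their own mean there, and lactation replicate 3 the lowest, with 10. These tumours lie in different groups, and the groups overlapped.

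Genes around the set were counted in the same fit. Of 64 names of other replication genes, 58 were found and tested: 30 had a higher and 28 a lower mean in lactation, 0 had an adjusted p under 0.05 and 0 an unadjusted p under 0.05, and the median difference was 0.0032. The largest differences were 0.26 for Blm, a helicase of stalled forks, -0.25 for Prim2, the regulatory primase subunit, and -0.24 for Orc3, of the origin recognition complex. Blm measured 256 ± 38.2 in lactation and 212 ± 47.7 in controls, and Prim2 measured 641 ± 140.0 in lactation and 754 ± 48.8 in controls (SD, n = 3 each). Groups did not overlap for 2 of the 58 as higher and 4 as lower, beside 3.71% and 3.19% of all tested genes.

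Of 35 genes of RB and E2F control of S phase entry, 33 were tested, with 18 higher and 15 lower means, 0 past either p threshold and a median difference of 0.0060. E2f8, a repressor of the family, had 1163 ± 208 in lactation and 996 ± 150.1 in controls (SD, n = 3 each), a difference of 0.21. Cdkn2a and Cdkn2b, genes that encode inhibitors of Cdk4 and Cdk6, had differences of 0.20 and -0.18, with intervals of -0.35 to 0.75 and -0.53 to 0.17. Cdkn2a was dim, with signals of 105 to 182 where array medians were from 99.3 to 111.0. Which of its transcripts the probe set measures was not tested. In none of the 33 were the groups apart.

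The G2 and mitosis list, the next stage of the cycle, had 19 higher and 13 lower means among 32 tested genes, 0 past either threshold and a median of 0.017. Ndc80 and Tpx2, of the kinetochore and the spindle, had differences of 0.24 and -0.18, and Top2a, the topoisomerase that untangles replicated DNA, had 0.17. The log2 averages of this list were 10.32, 10.38 and 10.42 in lactating hosts and 10.18, 10.52 and 10.38 in control hosts. Control replicate 1, the highest tumour for the replication set, was the lowest here, and the range over arrays was 0.332 beside 0.126 for the replication set. Without control replicate 1, 9 of the mitosis genes had a higher mean in lactation in place of 19.

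**Figure D4:**
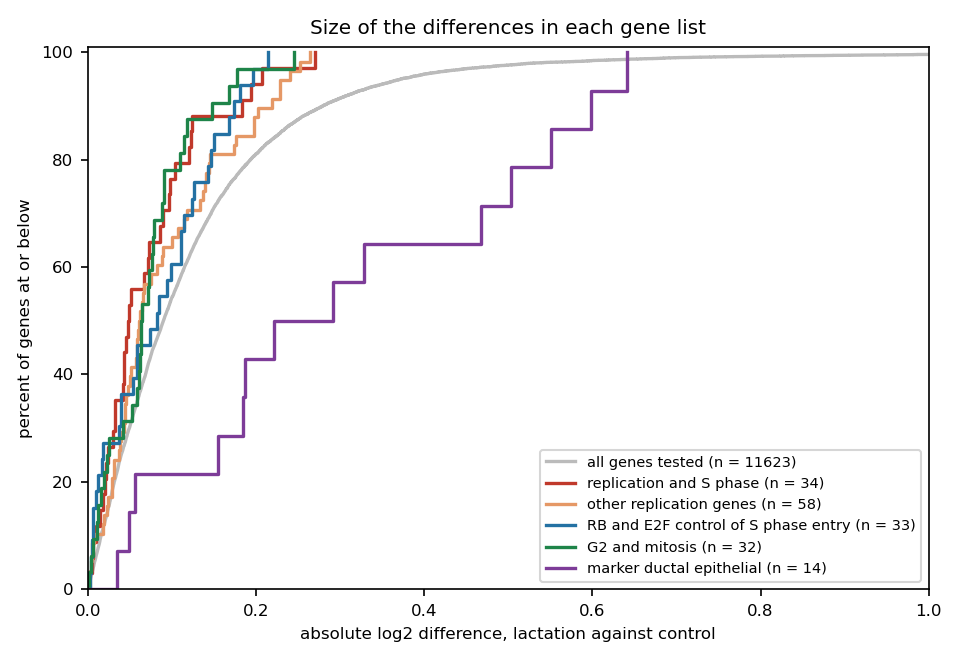
Cumulative percent of genes by absolute log2 difference between lactation and control, for the replication and S phase members, the 3 lists around them, ductal markers and all 11623 genes tested. The curves of the 4 cell cycle lists end by 0.27, the size measured for E2f1, while the ductal marker curve lies to the right.

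Cell type markers varied more between the tumours. All 14 ductal markers, which define the labelled tumour type, were above the filter, with list averages of 12.31, 11.90 and 12.54 in lactating hosts and 12.27, 11.71 and 11.86 in control hosts. All 14 had a higher mean in lactation, by a median of 0.26, though the groups overlapped for each of them. Macrophage and monocyte markers averaged 11.82, 11.80 and 11.37 in lactating hosts and 11.73, 12.00 and 11.93 in control hosts. Of the 11, 10 had a lower mean in lactation, with a median of -0.26. Groups were apart for 2 macrophage markers and 1 endothelial marker as lower, and for 1 neutrophil and 1 adipocyte marker as higher. Over all tested genes 3.19% were apart as lower and 3.71% as higher. Of 8 endothelial markers 7 had a lower mean, with a median of -0.15. Lower means were also found for 9 of 11 fibroblast and 4 of 7 T cell markers. Among tested markers, higher means were found for 3 of 4 neutrophil, 3 of 3 B and plasma cell, 4 of 7 skeletal muscle and 3 of 4 adipocyte genes. Those of the B and plasma cell list were Jchain, Mzb1 and Sdc1. Cd79a, Cd79b and Ms4a1 of that list were below the filter, and their differences were mixed in direction. By limma 0 of all the tested markers passed after adjustment. An unadjusted p under 0.05 in limma was found for 0 ductal markers, for 1 macrophage and 1 endothelial marker as lower and for 1 neutrophil marker as higher. Over all tested genes 2.27% had such a p. Ranges of the list average over the 6 arrays were 0.826 for ductal, 0.649 for fibroblast, 0.63 for macrophage, 0.70 for endothelial, 0.786 for neutrophil, 0.963 for T cell, 0.967 for B and plasma cell and 1.24 for adipocyte markers. Skeletal muscle markers, of the tissue beneath the injection site, ranged over 3.3, with lactation replicate 1 and control replicate 2 highest. The part of these cells in the members' values was not tested.

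**Figure D5:**
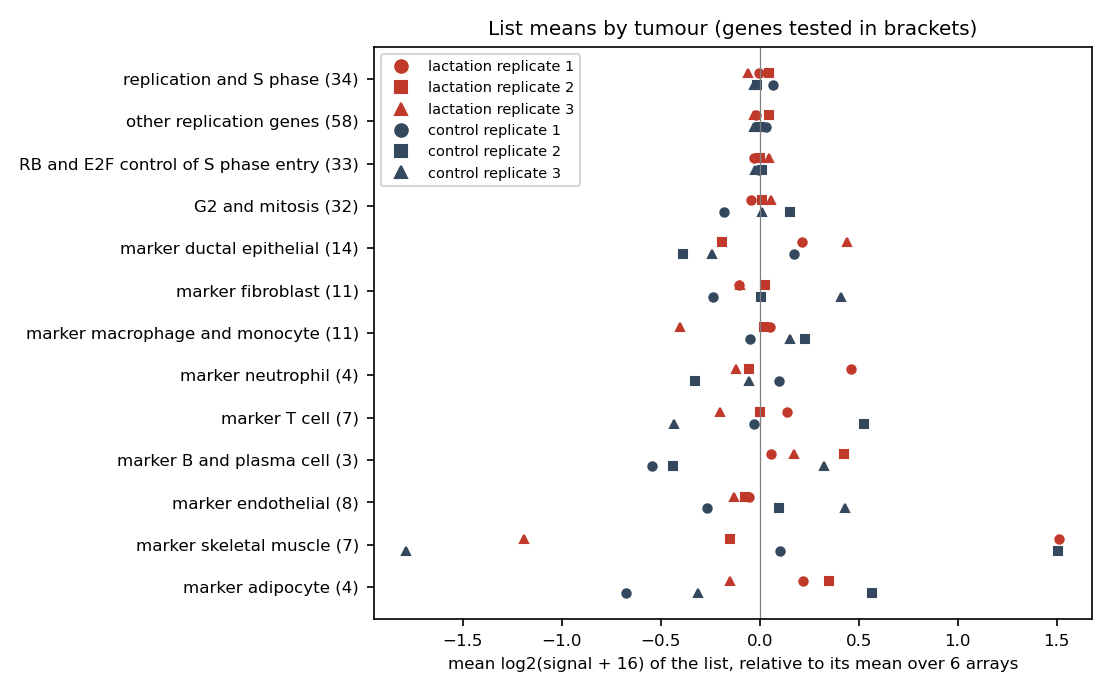
Mean log2(signal + 16) of each gene list in each tumour, relative to the list's own mean over the 6 arrays, with the number of tested genes in brackets. The replication set spans 0.126 and skeletal muscle markers 3.3, and red and blue points overlap for the replication set.

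Signs of these small differences depended on single tumours. With 1 of the 6 arrays left out, 23 of the 34 members changed sign at least once, and 0 had an adjusted p under 0.05. The 9 members with 1 sign in every setting in which they were tested were Ccne2, Dut, E2f1, Mcm10, Pcna, Rfc3 and Rrm1, all lower, and Rfc5 and Uhrf1, both higher. For Dut, Rfc3 and Uhrf1 a second probe set above the filter had the opposite sign, at 0.066, 0.020 and -0.15. Groups did not overlap for 10 members without lactation replicate 1, beside 18.8% of all genes tested, for 7 without lactation replicate 2, beside 18.2%, and for 5 without lactation replicate 3, beside 12.0%. Leaving out control replicate 1, 2 or 3 gave 4 such members each time, beside 21.6%, 14.2% and 14.1% of all genes. After centring of the arrays on their medians, the median over all genes was -0.051, the median over the members was -0.064, and 7 members had a higher mean in place of 13.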

How the data were processed

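Total RNA of 6 tumours was hybridised as biotin-labelled cRNA, 1 Affymetrix array each, per the labels' protocols. The deposited intensity values are MAS5 signals, the tool being named in the submitters' processing notes, on a linear scale with a common array level; the MAS5 version and a genome build are not given in the sources used here. Array number limits the precision.

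Probe sets with 1 gene symbol (34958 of 45101) were named by the platform table, and all 35 members matched the reference gene table by Entrez identifier. Values were log2(signal + 16), so differences of dim genes are understated. Lactation was tested against control over all 11623 filtered genes with limma 3.58.1 in R 4.3.3 (lmFit, eBayes with trend, group the only term, Benjamini-Hochberg). Intervals use the moderated standard errors. Members, lists and tests were chosen with earlier results of these data known. All members are described, in full where groups did not overlap or the difference was the largest of a role, and of each other list the 3 largest differences. Fits were tested on simulated data. Names without a single-gene probe set were not analysed here. Figures were drawn with matplotlib 3.10.9 in Python 3.11.15.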

Additional observations from a re-analysis of the deposited data

How the results depend on the processing

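The count of genes and of members with an adjusted p under 0.05 was 0 in all 10 other settings and all 6 fits without 1 array, and 138 to 650 genes had an unadjusted p under 0.05 in limma without an array. Among the members an unadjusted p under 0.05 appeared for Gins2 without control replicate 1 and for Uhrf1 without lactation replicate 1. The median difference of the members ranged from -0.030 to 0.0041 without an array. Members with a higher mean numbered 7 with arrays centred on their medians and 12 to 19 without an array. Members whose groups did not overlap numbered 4 to 10 without an array (12.0% to 21.6% of all genes). Mitosis genes with a higher mean numbered 9 to 25 without an array, the 9 being without control replicate 1. The labels state no pairing, so replicate numbers were not taken as pairs. Same-numbered tumours had deviations from their group means that correlated at 0.143, -0.083 and 0.267. Tumours with unlike numbers had correlations from -0.472 to 0.458. Deviations taken within such small groups depend on each other, so these values cannot decide on pairing. In the fit with the replicate block 13 members had a higher mean, 0 passed and 289 genes had an unadjusted p under 0.05. With arrays centred on their medians the log2 difference changed sign to Cdt1 -0.0044, Lig1 -0.014, Mcm2 -0.028, Mcm7 -0.045, Pola2 -0.025 and Prim1 -0.022. Averaging probe sets of a gene, the log2 difference changed sign to Cdc45 0.011, Gins1 0.053, Gins2 -0.016, Mcm4 0.11 and Pola1 0.19. With array weights the log2 difference changed sign to Mcm3 0.018, Pola1 0.038 and Prim1 -0.0031. After quantile normalization the log2 difference changed sign to Rrm2 0.0047. Over the fits without 1 array, log2 differences that changed sign ranged as follows: Ccne1 -0.020 to 0.22, Cdc45 -0.16 to 0.13, Cdc6 -0.048 to 0.21, Chaf1b -0.011 to 0.15, Fen1 -0.12 to 0.34, Gins1 -0.17 to 0.017, Gmnn -0.055 to 0.047 and Lig1 -0.042 to 0.10. Further ranges were Mcm2 -0.0054 to 0.053, Mcm3 -0.087 to 0.052, Mcm4 -0.093 to 0.13, Mcm5 -0.046 to 0.016, Mcm6 -0.15 to 0.073, Mcm7 -0.029 to 0.036, Pola1 -0.084 to 0.067 and Pola2 -0.027 to 0.084. The probe set of highest mean was picked again in each fit. For Mcm4 the 0.13, without control replicate 3, came from its other probe set. In the fits that kept the usual Mcm4 probe set, the highest difference was 0.023, without lactation replicate 3. The remaining ranges were Pold1 -0.16 to 0.054, Pole -0.24 to 0.020, Prim1 -0.13 to 0.10, Rfc4 -0.17 to 0.029, Rpa2 -0.098 to 0.016, Rrm2 -0.064 to 0.044 and Tk1 -0.18 to 0.12.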
